A study of Homo sapiens with 24 samples.

Results

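The 10 genes described here are respiratory chain genes carried by the mitochondrial genome: MT-ND1, MT-ND2, MT-ND3, MT-ND4, MT-ND5, MT-CYB, MT-CO1, MT-CO2, MT-CO3 and MT-ATP6. They were taken by symbol from a table of 60221 gene rows, which holds 37 mitochondrially encoded genes, and all 10 passed the filter on low counts. The cells were A375, a human melanoma line in long use, and they had been transfected with plasmids for SLNCR, a long noncoding RNA. The study asked which genes depend on the triplex-forming regions (TFR) of SLNCR, stretches of RNA that can pair with double-stranded DNA. The series has 24 libraries in 2 batches of 12, and only the batch 2 table holds these genes, since the batch 1 table of 28008 genes has none of them.

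Batch 2 has 4 groups of 3 libraries, stated by the submitters to be biological replicates. Cells received SLNCR lacking TFR 5 (ΔTFR5), SLNCR lacking TFR 4 (ΔTFR4), full-length SLNCR (FL) or the vector backbone alone (empty). All groups carried a pcDNA3.1 plasmid with puromycin resistance and a CAG promoter, delivered with Lipofectamine. They were selected for 48 h in medium with puromycin at 2 µg/mL. Total RNA was depleted of ribosomal RNA before library preparation.

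Mitochondrial DNA is transcribed from both strands as long precursor RNAs. The transfer RNAs that lie between most of the coding genes are cut out, which releases the messenger and ribosomal RNAs, so that messengers from one precursor begin at equal numbers and reach different levels through processing and decay. All 10 genes are read from the same strand. MT-ND1 to MT-ND5 encode core subunits of complex I, which takes electrons from NADH. MT-CYB encodes cytochrome b of complex III, MT-CO1, MT-CO2 and MT-CO3 encode the catalytic core of complex IV (cytochrome c oxidase), and MT-ATP6 encodes a subunit of the proton channel of complex V (ATP synthase). All other subunits of these complexes, apart from MT-ND4L, MT-ND6 and MT-ATP8, come from nuclear genes.

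In GRCh38 (GENCODE 29), the 10 genes lie on chrM between MT-ND1 at chrM:3307-4262 and MT-CYB at chrM:14747-15887, without introns. Some of their bases belong to a pair of genes, so reads there cannot be assigned to one of them. MT-ATP6 shares 46 bases with MT-ATP8, and MT-ND4 shares 7 bases with MT-ND4L. These stretches are shown because each pair is carried by one messenger, which links the counts of MT-ATP6 and MT-ND4 to those of their neighbours. In the first, the bases shared by MT-ATP8 and MT-ATP6 on the plus strand (chrM:8527-8572), capitals mark the start codon of MT-ATP6. In the second, the junction of MT-ND4L and MT-ND4 on the plus strand (chrM:10740-10786), capitals mark the shared bases.
MT-ATP8 and MT-ATP6: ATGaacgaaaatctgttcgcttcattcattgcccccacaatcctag
MT-ND4L and MT-ND4: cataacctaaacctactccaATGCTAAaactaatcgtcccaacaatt

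Nuclear copies of mitochondrial genes can take reads from them as well. The copy with the most reads, MTND2P28 (chr1:629640-630683), matched MT-ND2 at 98.37% of the aligned bases, with 17 mismatches over 1042 bases. MTATP6P1 (chr1:633696-634376) matched MT-ATP6 at 98.53%, with 10 mismatches over 681 bases. For each, the window of 60 bases with the most mismatches is shown, on the plus strand of both, with the differing bases in capitals. The MT-ND2 window (chrM:4899-4958, copy chr1:630069-630128) has 4 mismatches and the MT-ATP6 window (chrM:8642-8701, copy chr1:633811-633870) has 3.
MT-ND2: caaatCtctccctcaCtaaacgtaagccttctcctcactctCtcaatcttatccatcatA
MTND2P28: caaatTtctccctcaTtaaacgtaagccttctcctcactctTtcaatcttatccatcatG
MT-ATP6: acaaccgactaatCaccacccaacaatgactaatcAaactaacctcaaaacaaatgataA
MTATP6P1: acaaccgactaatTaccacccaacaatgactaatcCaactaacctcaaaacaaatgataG

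Library totals ran from 24810226 to 33063445 estimated counts. Levels are given as CPM, estimated counts scaled by library size to a common total. The row taken for SLNCR, which the table names LINC00511, had 321, 376 and 192 CPM in ΔTFR5, 515, 498 and 444 in ΔTFR4, 728, 658 and 334 in FL and 30.1, 29.1 and 27.9 in empty. FL replicate 1 stood apart from the other 11 libraries. Its counts followed the GC content of genes, with a Spearman rho across genes of -0.541, against -0.131 to 0.282 elsewhere. The signal recognition particle RNA RN7SL1 had 2890 CPM in FL replicate 1, against 8427 to 11530 elsewhere, and the leukocyte gene PTPRC had 2.79 CPM there, against at most 0.114 elsewhere. ΔTFR5 replicate 3 stood apart in mitochondrial ribosomal RNA, as described below. The labels call the cells epithelial. Epithelial markers in empty replicates 1 and 2 differed from the rest: KRT19 had 5.852 and 5.853 CPM there, against at most 0.443 in the other 10 libraries, and CDH1 had 3.98 and 5.01 CPM, against at most 1.365. EdgeR called both lower in ΔTFR5 than in empty (adjusted p = 0.00983 for KRT19 and 0.0172 for CDH1) and in ΔTFR4 than in empty (0.00517 and 0.0387). The 9 epithelial markers summed to between 590.7 and 636.7 CPM in ΔTFR5, 429.5 and 542.9 in ΔTFR4, 300.6 and 711.8 in FL and 596.4 and 655.9 in empty, and their part in the comparisons with empty was not tested. EPCAM lay between 0 and 0.74 CPM, KRT18 between 228 and 522.5 and VIM between 2200 and 3768. Of 10 melanoma and melanocyte markers, SOX10 lay between 43.9 and 77.9 CPM, PRAME between 48.8 and 118.5 and MITF between 55.8 and 198. S100A1 reached 5.38 CPM, TYRP1 2.07, MLANA 1.64 and PMEL 1.02, and S100B, DCT and TYR stayed at or below 0.83. EdgeR called SOX10 lower than empty in FL, ΔTFR4 and ΔTFR5 (adjusted p = 0.0226, 0.0182 and 0.0187). Of the 8 tested, 1 was lower than empty in FL, 1 higher and 4 lower in ΔTFR4, and 2 higher and 1 lower in ΔTFR5. Those comparisons called 1.16, 23.9 and 10.2% of all genes.

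Together the 10 genes took 3.10, 2.54 and 2.696% of all counts in ΔTFR5, 1.41, 2.31 and 2.28% in ΔTFR4, 2.97, 1.53 and 2.29% in FL and 1.72, 2.44 and 1.67% in empty. All 3 ΔTFR5 libraries lay above the ΔTFR4 and empty libraries, and the other groups overlapped. In bulk RNA, fewer mitochondria, fewer mitochondrial genomes and less RNA from each cannot be told apart. ΔTFR4 replicate 1 was the lowest of the 12 libraries for 8 of the 10 genes. FL replicate 1 and ΔTFR5 replicate 1 were each the highest for 4. MALAT1, a nuclear noncoding RNA, had its lowest values in ΔTFR4 replicate 1 (756 CPM) and FL replicate 2 (876 CPM), the 2 libraries with the lowest mitochondrial shares. It had 1007 to 1957 CPM in the other 10, and the 1007 CPM was in FL replicate 1, where the 10 genes took 2.97%. Among the other noncoding RNAs listed, NEAT1 was also lowest in ΔTFR4 replicate 1 (142 CPM) and FL replicate 2 (129 CPM). RN7SK, RN7SL1, RN7SL2, RMRP and RPPH1 were lowest in FL replicate 1, and RN7SL1 was highest in ΔTFR4 replicate 1 (11530 CPM). The part of these RNAs in the mitochondrial levels was not tested.

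**Figure D1:**
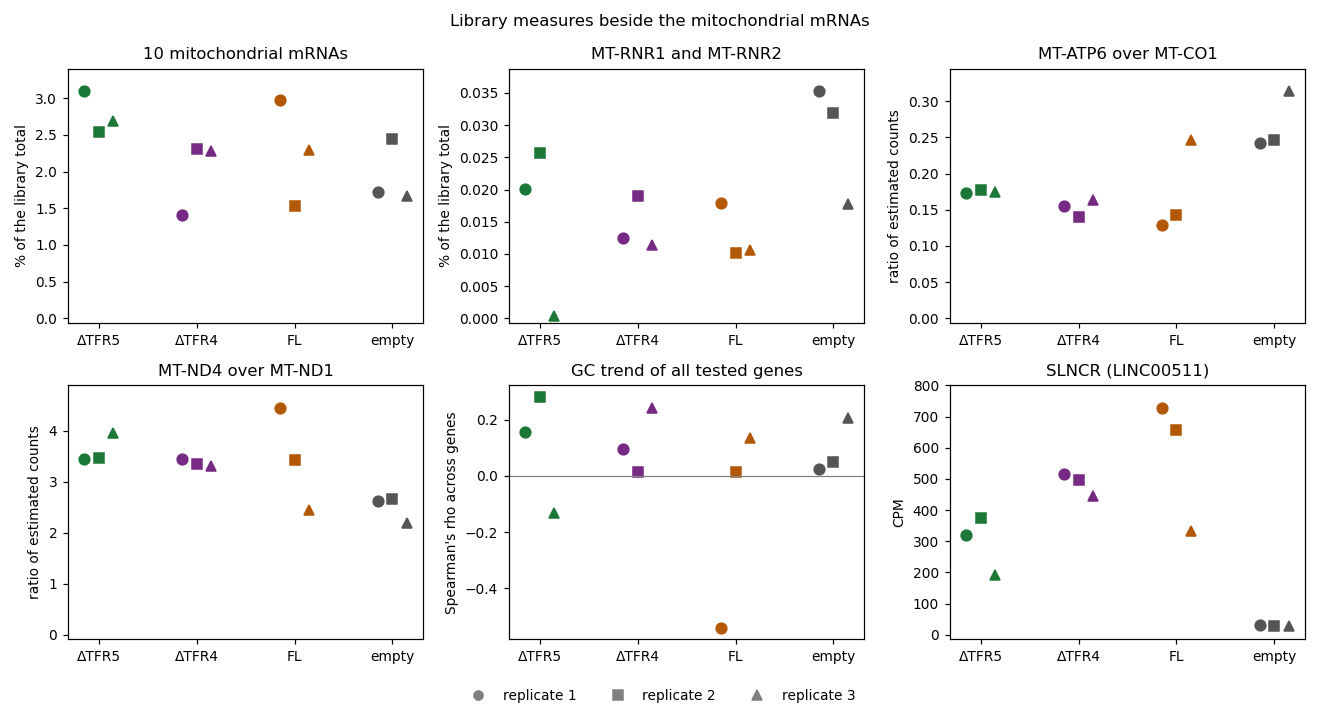
Each panel plots 1 measure by library, with groups on the x axis and the replicate number as the symbol: the share of the 10 genes and of the mitochondrial ribosomal RNAs in the library total (%), ratios of estimated counts between mitochondrial genes, Spearman's rho between a gene's level in the library and its GC content, and SLNCR in CPM. FL replicate 1 lies at a rho of -0.541, ΔTFR5 replicate 3 lies near 0 for the ribosomal RNAs, and FL replicate 3 lies near the empty libraries in both ratios.

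Per kilobase of gene, MT-CO1 had the highest level, with a mean of 4202 ± 1043 CPM per kilobase (SD, n = 12 libraries). MT-CO2 followed at 3052 ± 888, MT-ND4 at 2520 ± 801 and MT-CO3 at 2185 ± 550, so the complex IV messengers held 3 of the top 4 places. The next were MT-ND2 at 1838 ± 438, MT-ATP6 at 1786 ± 516 and MT-ND5 at 1600 ± 400. MT-CYB at 1128 ± 278, MT-ND1 at 1121 ± 233 and MT-ND3 at 823 ± 183 were lowest. The ranges of neighbouring genes overlapped across libraries at every place in this order. Within libraries some steps were regular: MT-CO1 exceeded MT-CO2, MT-CO2 exceeded MT-ND4, MT-ND5 exceeded MT-CYB and MT-ND1 exceeded MT-ND3 in 12 of 12 libraries. MT-ND2 against MT-ATP6, and MT-CYB against MT-ND1, were ordered that way in 6 of 12 libraries each.

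Across the 12 libraries most of the genes varied together. Over 45 pairs, Pearson's r of log2 CPM had a median of 0.789, and ran from -0.27 for MT-ND3 with MT-ND4 to 0.993. These libraries share groups, and the pairs share libraries. The highest library exceeded the lowest by 1.97 times for MT-ND5 and by 2.698 times for MT-ND4, with the other genes between these.

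None of the 10 genes was called in any of the 6 pairwise comparisons, or in the test over all 4 groups, at an adjusted p under 0.05 from edgeR's quasi-likelihood test with Benjamini-Hochberg adjustment over 18763 genes. DESeq2 also called none. Over all 4 groups edgeR called 18.7% of the genes tested, and its unadjusted p was under 0.05 for 0 of the 10, against 1 by DESeq2. The standard errors of the log2 fold changes ran from 0.22 to 0.28. The comparisons share groups, so their values for a gene are not independent of each other.

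**Figure D2:**
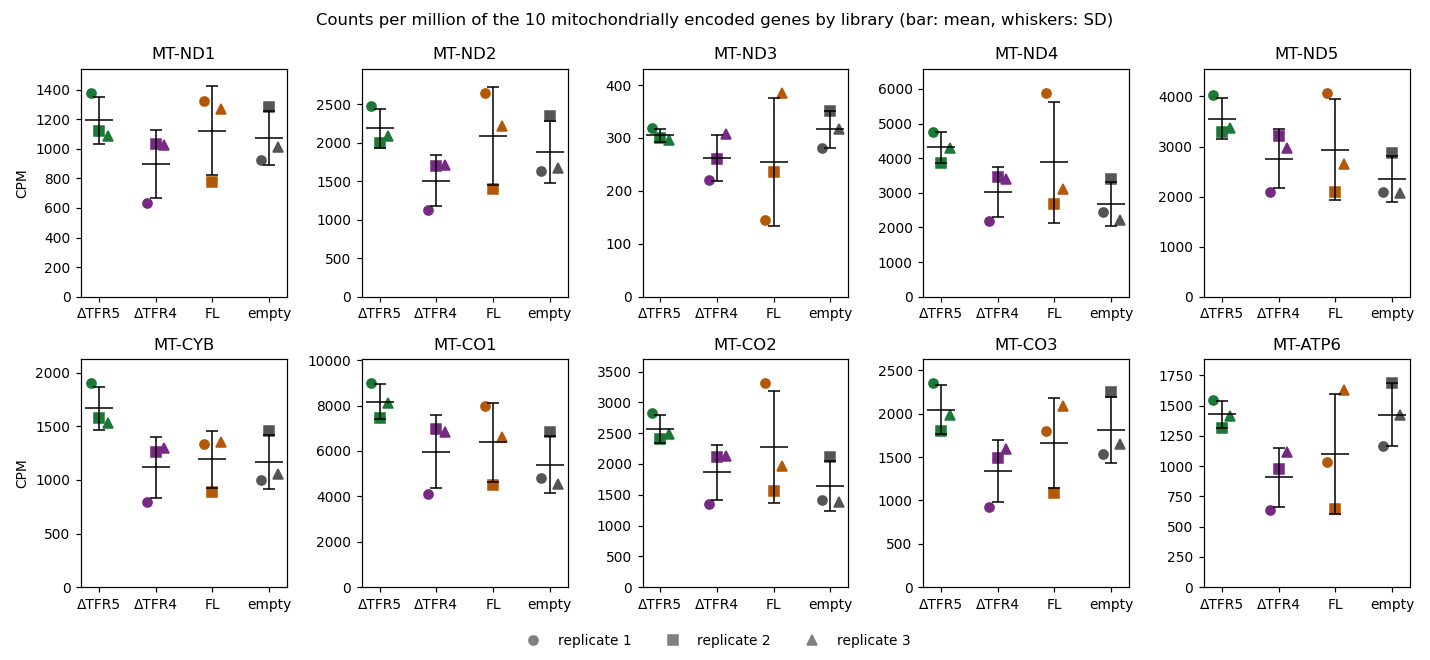
CPM of each of the 10 genes (y axis, from 0) in the libraries of the 4 groups (x axis), with replicates 1 to 3 as circles, squares and triangles, bars at the mean and whiskers of 1 SD (n = 3). For MT-CO1 the 3 ΔTFR5 libraries sit between 7445 and 8973 CPM, above the ΔTFR4 and empty libraries, while FL spreads from 4521 to 7989.

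ΔTFR5 against ΔTFR4 compares removal of one region with removal of another. SLNCR was also lower in ΔTFR5 (321, 376 and 192 CPM) than in ΔTFR4 (515, 498 and 444 CPM). The region removed and the level of SLNCR cannot be told apart in this comparison. All 10 genes had positive log2 fold changes, between 0.21 and 0.65 with a median of 0.49, against a median of -0.0026 over all genes tested. The CPM ranges of 9 of the 10 did not overlap, all with ΔTFR5 higher, whereas 13.1% of all genes were non-overlapping in that direction. MT-ND3 was the exception. Most of the 10 varied together (median r of 0.789 over pairs), so they are not separate observations to set against that rate. Their summed share of the library was 2.54% or more in ΔTFR5 and 2.31% or less in ΔTFR4. No gene of the 10 was called, with adjusted p from 0.427 to 0.838, and 0.453% of all genes were called in this comparison. Unadjusted p was under 0.05 for 4 of the 10 by edgeR and for 4 by DESeq2, and by edgeR for 1820 of all 18763 genes.

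MT-CYB had 1901, 1578 and 1532 CPM in ΔTFR5 and 792, 1257 and 1302 in ΔTFR4. The lowest ΔTFR5 library exceeded the highest ΔTFR4 library, and the log2 fold change was 0.58 ± 0.22 (SE; adjusted p = 0.427). MT-CO3, a core subunit of cytochrome c oxidase, had 2349, 1801 and 1990 CPM in ΔTFR5 and 930, 1489 and 1590 in ΔTFR4, a log2 fold change of 0.61 ± 0.25 (adjusted p = 0.45). The groups did not overlap, and ΔTFR4 replicate 1 lay well below its fellows, as it did for MT-CYB. MT-ATP6 had 1548, 1318 and 1416 CPM in ΔTFR5 and 639, 975.4 and 1113 in ΔTFR4, a log2 fold change of 0.65 ± 0.28 (adjusted p = 0.475). MT-ND3 had 319, 299 and 296 CPM in ΔTFR5 and 221, 260 and 308 in ΔTFR4, so that the highest ΔTFR4 library lay between the ΔTFR5 libraries (0.21 ± 0.26, adjusted p = 0.838).

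ΔTFR5 against empty compares cells with the deleted SLNCR against cells with no insert. Unadjusted p was under 0.05 for 5 of the 10 genes by edgeR, namely MT-ND4, MT-ND5, MT-CO1, MT-CO2 and MT-CYB, and for 5 by DESeq2. By edgeR it was under 0.05 for 4950 of all 18763 genes. The 5 genes named had higher CPM in ΔTFR5 with no overlap, against 22.8% of all genes, and here too they are not separate observations. Their adjusted p lay between 0.118 and 0.153, so none was called, where 10.2% of all genes were. The median log2 fold change of the 10 was 0.365, against 0.02 over all genes.

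MT-CO1, the catalytic subunit of complex IV and the most abundant of these messengers, had 8973, 7445 and 8098 CPM in ΔTFR5 and 4818, 6840 and 4545 in empty. Its log2 fold change was 0.60 ± 0.24 (95% confidence interval 0.09 to 1.11, adjusted p = 0.127). MT-CO2, which holds the copper centre that takes electrons from cytochrome c, had 2822, 2402 and 2478 CPM in ΔTFR5 and 1418, 2118 and 1388 in empty (0.65 ± 0.26, adjusted p = 0.137). In both genes empty replicate 2 lay far above the other 2 empty libraries and still below the lowest ΔTFR5 library. MT-ND4 had 4757, 3864 and 4306 CPM in ΔTFR5 and 2440, 3408 and 2217 in empty (0.68 ± 0.28, adjusted p = 0.133). MT-ND5 had 4021, 3282 and 3371 CPM in ΔTFR5 and 2099, 2872 and 2070 in empty (0.60 ± 0.23, adjusted p = 0.118). These messengers encode proton-pumping subunits of the membrane arm of complex I, and for both the groups did not overlap.

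At the other end, MT-ATP6 averaged 1427 ± 115 CPM in ΔTFR5 and 1425 ± 260 CPM in empty (SD, n = 3 each), with a confidence interval of the log2 fold change from -0.60 to 0.60. MT-ND3 averaged 305 ± 12.7 CPM in ΔTFR5 and 316 ± 35.1 in empty. A fit on the ΔTFR5 and empty libraries alone called 5 of the 10, with adjusted p of 0.00792 for MT-ND4, 0.00529 for MT-ND5, 0.0116 for MT-CO1, 0.0123 for MT-CO2 and 0.0198 for MT-CYB, and it called 32% of all genes it tested, against 10.2%. With FL replicate 1 left out of the spread estimate, MT-ND4 (adjusted p = 0.029), MT-ND5 (0.0284) and MT-CO2 (0.0439) were called, at a setting that called 23.9% of all genes.

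ΔTFR4 against empty gave values of both signs. MT-ATP6 had the largest difference of the 10: 639, 975.4 and 1113 CPM in ΔTFR4 and 1165, 1684 and 1426 in empty, a log2 fold change of -0.65 ± 0.28 (95% confidence interval -1.25 to -0.04, adjusted p = 0.11). It was the 1 gene with non-overlapping CPM ranges, whereas 27.5% of all genes were lower with no overlap. It was also the 1 gene with an unadjusted p under 0.05, by edgeR and by DESeq2. Over all 18763 genes, edgeR gave 6934 an unadjusted p under 0.05. Without FL replicate 3 the adjusted p of MT-ATP6 was 0.0323, at a setting that called 30.7% of all genes. MT-CO3, which adjoins MT-ATP6 on the genome, had a log2 fold change of -0.44 ± 0.25 (adjusted p = 0.221). MT-ND5 stood at 0.23 ± 0.23, MT-CO2 at 0.18 ± 0.26, MT-ND4 at 0.16 ± 0.27 and MT-CO1 at 0.15 ± 0.24, and the other genes lay between -0.32 and -0.07. None was called, where 23.9% of all genes were, and the median of the 10 was -0.165, against 0.02 over all genes.

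FL against empty compares cells with full-length SLNCR and cells with the vector alone. Log2 fold changes ran from -0.37 for MT-ATP6 to 0.53 for MT-ND4, with a median of 0.105 against 0.02 over all genes. CPM ranges overlapped for all 10 genes, where 23% of all genes did not overlap, and none had an unadjusted p under 0.05 by edgeR or DESeq2. Of all 18763 genes, 4933 had one by edgeR. None of the 10 was called, against 1.16% of all genes. The FL libraries disagreed with each other. MT-ATP6 had 1033, 646 and 1628 CPM in FL and 1165, 1684 and 1426 in empty, so FL replicate 3 lay with the empty libraries while the other FL libraries lay below them. MT-ND3, a small core subunit of complex I, had 145, 236 and 385 CPM in FL and 281, 351 and 318 in empty, with the lowest and the highest of all 12 libraries within the FL group. MT-ND4 had 5881, 2665 and 3102 CPM in FL and 2440, 3408 and 2217 in empty, and its highest value was that of FL replicate 1. Without FL replicate 3, which had the least SLNCR of the FL libraries, MT-ND3 (log2 fold change -0.74, adjusted p = 0.0115) and MT-ATP6 (-0.77, adjusted p = 0.0294) were called, 2 of the 10, while 30.7% of all genes were called at that setting. That choice leaves FL replicates 1 and 2, and FL replicate 1 has the GC trend described above; its part in these calls was not tested.

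Deletions against FL ask what removal of a region changes. SLNCR averaged 296 CPM in ΔTFR5, 486 in ΔTFR4 and 573.5 in FL, and the part of its level was not tested. In ΔTFR5 against FL, all 10 log2 fold changes were positive, between 0.07 and 0.49 with a median of 0.27, against -0.02 over all genes. MT-CYB had 1901, 1578 and 1532 CPM in ΔTFR5 and 1335, 884 and 1358 in FL, without overlap, where 9.53% of all genes were higher with no overlap. It was the 1 gene with an unadjusted p under 0.05, and its log2 fold change was 0.49 ± 0.22 (adjusted p = 0.226). None of the 10 was called, against 1.38% of all genes, and DESeq2 gave 1 gene an unadjusted p under 0.05. EdgeR gave 3897 of all 18763 genes such a p. Without FL replicate 3, MT-ND3 (log2 fold change 0.68, adjusted p = 0.0288) and MT-ATP6 (0.77, adjusted p = 0.0456) were called, while 17.9% of all genes were called at that setting.

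In ΔTFR4 against FL, 9 of the 10 log2 fold changes were negative and ran to -0.47, MT-ND3 stood at 0.04, and the median was -0.285, against -0.02 over all genes. MT-ND2, another membrane subunit of complex I, had the largest difference, with 1121, 1698 and 1704 CPM in ΔTFR4 and 2644, 1397 and 2216 in FL (-0.47 ± 0.23, adjusted p = 0.246). FL replicate 2 lay between the ΔTFR4 libraries, so the groups overlapped, as they did for all 10 genes, where 24.2% of all genes did not overlap. None was called, against 4.36% of all genes. Unadjusted p was under 0.05 for 0 of the 10 by edgeR and for 1 by DESeq2, and by edgeR for 4313 of all 18763 genes.

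**Figure D3:**
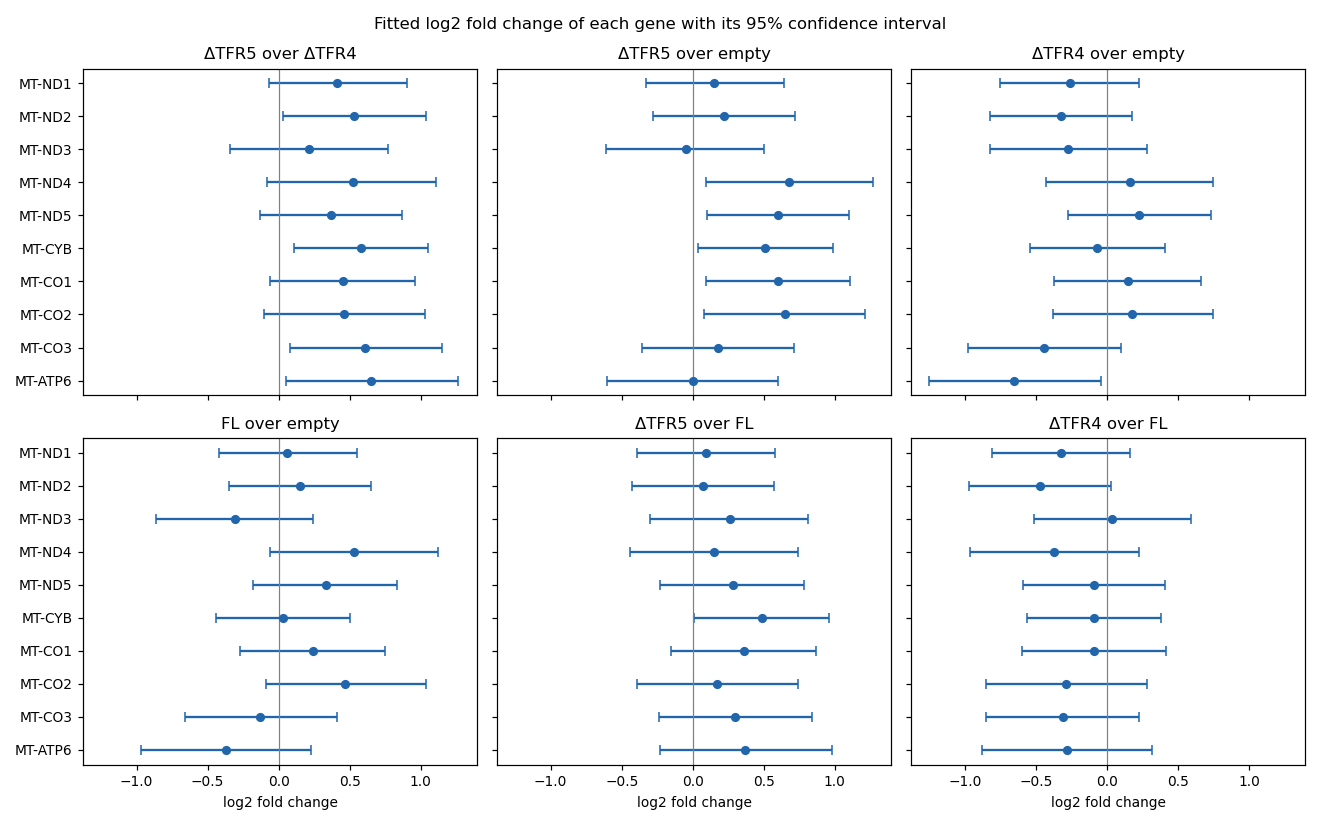
Log2 fold change of each gene (points, x axis) with its 95% confidence interval, 1 panel per comparison, first-named group over second. All 10 points lie above 0 in ΔTFR5 over ΔTFR4, between 0.21 and 0.65, whereas in ΔTFR4 over empty they run from -0.65 for MT-ATP6 to 0.23 for MT-ND5.

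For 9 of the 10 genes, the share in the mitochondrial messenger pool varied less across libraries than the CPM of the same gene. Each gene was expressed as its share of the summed counts of the 10 genes in the same library, which removes differences in how much of the library the pool takes. Over the 12 libraries the coefficient of variation of MT-CO1 was 24.82% in CPM and 5.10% as a share, and that of MT-ND5 was 25.0% in CPM and 8.07% as a share. The gap was small for MT-ATP6, at 28.87% in CPM and 25.68% as a share. MT-ND3 was the exception, at 22.2% in CPM and 27.0% as a share. Shares sum to a whole, so a higher share of one gene lowers the others, and the 10 shares are not independent. An exact permutation test of 3 against 3 libraries cannot go below p = 0.1 (two-sided), and every non-overlapping share below has that value.

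ΔTFR5 and ΔTFR4 differed from empty in the shares of most of the genes. In ΔTFR5 against empty, 9 of the 10 shares did not overlap, with 4 higher and 5 lower. In ΔTFR4 against empty, 8 did not overlap, with 4 higher and 4 lower. For scale, the same count in nuclear-encoded subunits of the respiratory complexes, each as a share of their own sum, was 30 of 79 (38.0%) in each of these comparisons. For mitochondrial ribosomal proteins it was 34 of 79 (43.0%) for ΔTFR5 and 48 of 79 (60.8%) for ΔTFR4. These pools have more genes, so a single gene weighs less in them, and the difference between pools was not tested.

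The genes with higher shares in both deletion groups than in empty were MT-CO1, MT-CO2, MT-ND4 and MT-ND5. MT-CO1 made up 29.4, 29.7 and 30.4% of the pool in ΔTFR5, 29.3, 31.1 and 30.5% in ΔTFR4, 27.1, 28.5 and 28.4% in FL and 27.8, 27.8 and 26.2% in empty. Its share was thus above that of every FL and every empty library in both deletion groups. MT-ND4 made up 15.6, 15.4 and 16.2% in ΔTFR5, 15.5, 15.4 and 15.2% in ΔTFR4, 19.9, 16.8 and 13.3% in FL and 14.1, 13.9 and 12.8% in empty. The deletion groups were tight and the FL group spanned them. MT-CO2 averaged 9.37 ± 0.175% in ΔTFR5, 9.50 ± 0.0732% in ΔTFR4, 9.83 ± 1.39% in FL and 8.27 ± 0.309% in empty (SD, n = 3 each). MT-ND5 averaged 12.96 ± 0.276% in ΔTFR5 and 14.1 ± 0.791% in ΔTFR4, which did not overlap with each other, 12.8 ± 1.237% in FL and 11.9 ± 0.231% in empty.

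The genes with lower shares in both deletion groups than in empty were MT-ND1, MT-ND2, MT-CO3 and MT-ATP6, and in ΔTFR5 also MT-ND3. MT-ND2 made up 8.09, 7.96 and 7.81% in ΔTFR5, 7.96, 7.56 and 7.63% in ΔTFR4, 8.96, 8.80 and 9.52% in FL and 9.43, 9.53 and 9.60% in empty. Both deletion groups lay below every FL library and every empty library. MT-ATP6 made up 5.07, 5.25 and 5.31% in ΔTFR5, 4.54, 4.34 and 4.98% in ΔTFR4, 3.50, 4.07 and 6.998% in FL and 6.73, 6.84 and 8.22% in empty. FL replicate 3 fell among the empty libraries and the other FL libraries below all others. MT-CO3 averaged 7.44 ± 0.259% in ΔTFR5, 6.78 ± 0.286% in ΔTFR4, 7.31 ± 1.51% in FL and 9.17 ± 0.308% in empty. MT-ND1 averaged 4.35 ± 0.228% in ΔTFR5, 4.56 ± 0.0474% in ΔTFR4, 4.94 ± 0.484% in FL and 5.47 ± 0.333% in empty.

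MT-CYB was the 1 gene whose share overlapped with empty in both deletion groups, at 6.09 ± 0.296% in ΔTFR5, 5.68 ± 0.1245% in ΔTFR4 and 5.92 ± 0.170% in empty. Against FL, 2 of 10 shares did not overlap in each deletion group, MT-CO1 higher and MT-ND2 lower in both. In ΔTFR5 against ΔTFR4, 3 did not overlap, with MT-CO3 and MT-ATP6 higher and MT-ND5 lower. In FL against empty, 0 of 10 did not overlap. In the nuclear-encoded subunits and the mitochondrial ribosomal proteins, the same count was 11.4 and 15.2% in ΔTFR5 against FL, 20.3 and 21.5% in ΔTFR4 against FL, 17.7 and 27.8% in ΔTFR5 against ΔTFR4, and 15.2 and 10.1% in FL against empty. Leaving out a library of either group can only keep or raise such a count. Without FL replicate 3 it was 8 of 10 in FL against empty, against 45.6% of the subunits and 41.8% of the ribosomal proteins. At the same setting it was 8 of 10 in ΔTFR5 against FL, against 27.8 and 38.0% of those pools, and 6 of 10 in ΔTFR4 against FL, against 35.4 and 40.5%. Without FL replicate 1 it was 1 of 10 in FL against empty, against 19.0 and 16.5%, and 4 of 10 in each deletion group against FL, against 26.6% of both pools in ΔTFR5 and 34.2 and 35.4% in ΔTFR4. In ΔTFR5 against ΔTFR4 it was 7 of 10 without ΔTFR4 replicate 1, against 25.3 and 35.4%, and 6 of 10 without ΔTFR5 replicate 2, against 34.2 and 50.6%. In FL against empty it was 3 of 10 without empty replicate 1, against 21.5% of both pools, and 1 of 10 without empty replicate 2, against 22.8 and 19.0%. The differences between the 10 genes and the pools were not tested. Without empty replicate 1, the shares of 9 of the 10 genes did not overlap with empty in ΔTFR5, and 9 in ΔTFR4. In the subunits and ribosomal proteins the count was then 48.1 and 50.6% in ΔTFR5, and 51.9 and 62.0% in ΔTFR4. Without empty replicate 2 it was again 9 of 10 in both groups. The pools then stood at 43.0 and 48.1% in ΔTFR5, and 44.3 and 65.8% in ΔTFR4.

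**Figure D4:**
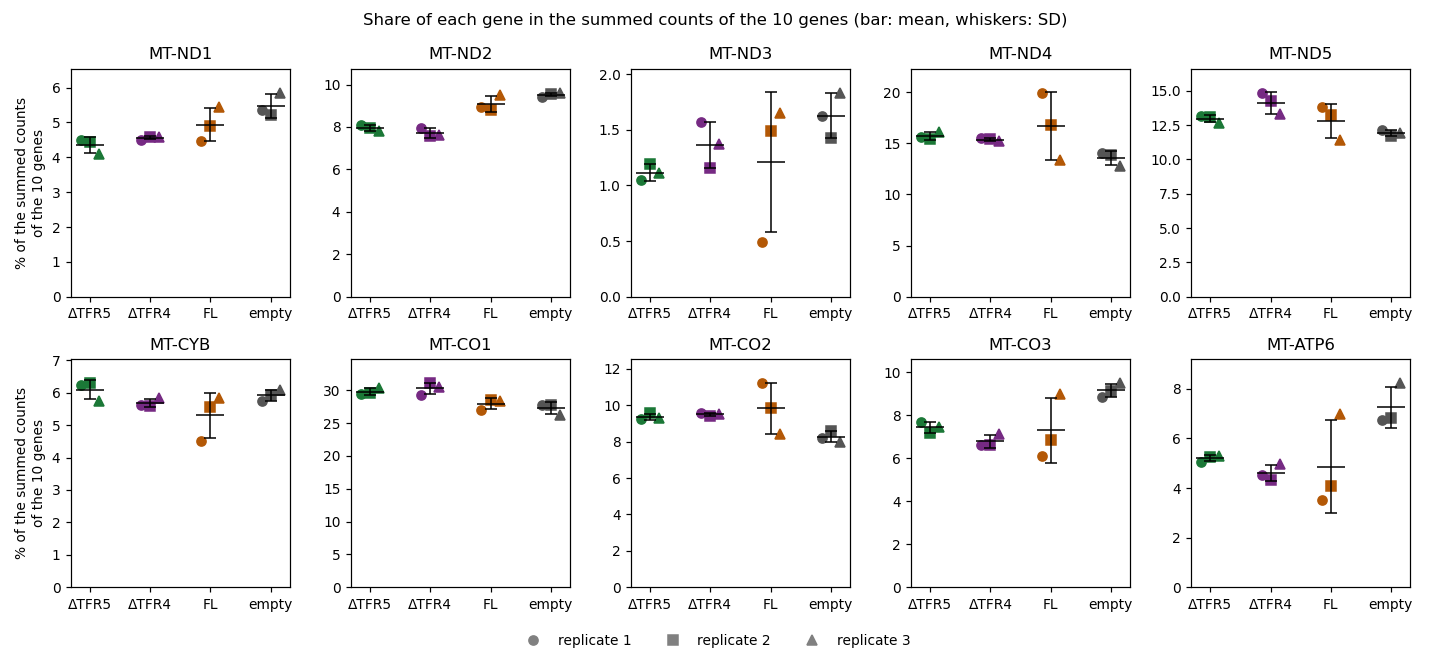
Share of each gene in the summed estimated counts of the 10 genes (%, y axis, from 0) by library and group, with replicates 1 to 3 as circles, squares and triangles, bars at the mean and whiskers of 1 SD (n = 3). MT-ND2 lies between 7.56 and 8.09% in the deletion groups, below the FL libraries at 8.80% or more, and the FL libraries of MT-ATP6 run from 3.50 to 6.998%.

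Ratios between genes whose shares differed in opposite directions restate those shares within each library. MT-ATP6 over MT-CO1 was 0.173, 0.177 and 0.175 in ΔTFR5, 0.155, 0.140 and 0.163 in ΔTFR4, 0.129, 0.143 and 0.247 in FL and 0.242, 0.246 and 0.314 in empty. MT-ND4 over MT-ND1 was 3.46, 3.46 and 3.95 in ΔTFR5, 3.44, 3.35 and 3.32 in ΔTFR4, 4.45, 3.43 and 2.45 in FL and 2.63, 2.66 and 2.19 in empty. In these ratios the deletion libraries and FL replicates 1 and 2 lay on one side, and the empty libraries and FL replicate 3 on the other. MT-ND3 over MT-CO1 did not divide the libraries in this way, at 0.0356, 0.0402 and 0.0366 in ΔTFR5, 0.0535, 0.0372 and 0.0451 in ΔTFR4, 0.0182, 0.0522 and 0.0583 in FL and 0.0583, 0.0513 and 0.06985 in empty. Across the 10 genes, log2 fold changes against empty were set beside gene length. Spearman's rho was 0.67 in ΔTFR5, 0.61 in ΔTFR4 and 0.64 in FL, comparisons that share the empty libraries. Without empty, the rho with length was 0.03 in ΔTFR5 against FL, -0.06 in ΔTFR4 against FL and -0.16 in ΔTFR5 against ΔTFR4. The rho with GC content was between 0.08 and 0.15 in the comparisons with empty. The long genes MT-ND5 (1812 bases), MT-CO1 (1542) and MT-ND4 (1378) are among those with higher shares, while MT-CO2, also with higher shares, has 684 bases and MT-ATP6, with lower shares, has 681. Whether fragment or RNA length bears on the shares was not tested.

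Of the other mitochondrially encoded genes, MT-ND4L, MT-ND6, MT-ATP8, both ribosomal RNAs and 3 of the 22 transfer RNAs passed the filter, and none of these 8 was called by edgeR in any comparison. At most 1 of them had an unadjusted p under 0.05 in a comparison, where 1820 to 6934 of all 18763 genes had one. DESeq2 called 1, as lower in ΔTFR4 against empty, where it called 28.5% of all genes. With a library left out, edgeR called up to 2 of the 8 as higher in ΔTFR5 against empty, where 440 to 4600 of all genes were called. It called up to 2 as lower in ΔTFR4 against empty (without ΔTFR5 replicate 3, with 22.3% of all genes called). It called 1 as lower in ΔTFR4 against FL (without FL replicate 2, with 8.11% called). MT-ATP8, which overlaps MT-ATP6, averaged 389 ± 87.4 CPM in ΔTFR4 and 678.5 ± 142 CPM in empty (SD, n = 3 each), a log2 fold change of -0.80 ± 0.30 (adjusted p = 0.0707) beside -0.65 for MT-ATP6. In ΔTFR5 against FL, MT-ATP8 stood at -0.09 ± 0.30 and MT-ATP6 at 0.37. The ratio of MT-ATP8 to MT-ATP6 ran from 0.363 to 0.752 over the 12 libraries and was highest in FL replicate 1. MT-ND4L, on the messenger of MT-ND4, kept a ratio to it between 0.145 and 0.175 in all 12 libraries. All ΔTFR5 libraries, at 0.1502 or less, lay below every other library, at 0.1533 or more. MT-ND6 is the 1 messenger read from the opposite strand. It had 1028, 798 and 892 CPM in ΔTFR5, 531, 773 and 723 in ΔTFR4, 1530, 538 and 627 in FL and 499, 704 and 494 in empty, so its highest library was FL replicate 1, as for MT-ND4. Its log2 fold change in ΔTFR5 against empty was 0.68 ± 0.32 (adjusted p = 0.194). The strand setting of the counting is not given in the sources used here, so reads of MT-ND6 and of RNA opposite to it cannot be told apart.

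The ribosomal RNAs of the mitochondrion, MT-RNR1 and MT-RNR2, made up 0.02005, 0.0257 and 0.000362% of the library in ΔTFR5, 0.0124, 0.0190 and 0.0114% in ΔTFR4, 0.0179, 0.0102 and 0.0106% in FL and 0.0352, 0.0319 and 0.0178% in empty. In ΔTFR5 replicate 3 MT-RNR1 was at 1.62 CPM and MT-RNR2 at 1.96 CPM, against 28.6 to 118 and 75.0 to 236 CPM in the other 11 libraries. The 10 messengers of that library took 2.696% of its counts, between the other ΔTFR5 libraries. Ribosomal RNA had been depleted from all libraries, so these levels also depend on the depletion. Its part was not tested.

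Nuclear copies held few reads beside the genes themselves. The 407 rows for such copies summed to between 0.171 and 0.283% of the counts of the 10 genes in a library, and 8 of them passed the filter. MTND2P28 had between 1.11 and 2.27% of the counts of MT-ND2, MTATP6P1 between 0.417 and 0.862% of those of MT-ATP6, and MTND4P12 between 0.0327 and 0.0666% of those of MT-ND4. None of the 8 copies was called by edgeR in any comparison. Between 0 and 2 of them had an unadjusted p under 0.05, as had 1820 to 6934 of all 18763 genes. DESeq2 called 1 as lower in ΔTFR4 against empty, where it called 28.5% of all genes. It called 1 as higher in ΔTFR5 against ΔTFR4, where it called 1.26%. With a library left out, edgeR called up to 2 copies lower in ΔTFR4 against empty (without FL replicate 3, with 30.7% of all genes called). It called up to 2 higher in ΔTFR5 against FL, where 19 to 3480 of all genes were called. Up to 1 was called higher in ΔTFR5 against ΔTFR4, where 39 to 387 of all genes were called. Up to 1 was called lower in FL against empty (without FL replicate 3, with 30.7% of all genes called).

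In the fit of all 12 libraries, few nuclear partners of these genes were called against empty in the deletion groups. Their shares there lay below those of all genes. Among 79 nuclear-encoded subunits of the respiratory complexes, 3 fell and 0 rose in ΔTFR5 (3.80% lower, against 4.68% of all genes), and 7 fell and 0 rose in ΔTFR4 (8.86% lower, against 11.4% of all genes). Their median log2 fold change was -0.21 in ΔTFR5 and -0.17 in ΔTFR4, and -0.31 in FL against empty. In FL against empty edgeR called none, with an unadjusted p under 0.05 for 14 of 79 and for 4933 of all 18763 genes. DESeq2 called 3 there, against 11% of all genes. The median of the subunits was below 0 in all of these comparisons under every scaling tried. Leaving out single libraries moved the count of lower subunits in ΔTFR4 between 2 (without ΔTFR4 replicate 1) and 23 (without FL replicate 1), and in ΔTFR5 between 0 (without ΔTFR5 replicate 2) and 20 (without FL replicate 1). At the low ends, 1285 of 19524 and 136 of 19394 genes were lower. Without FL replicate 1, 3632 of 19234 genes were lower in ΔTFR4 and 2362 in ΔTFR5, so the subunit shares then lay above those of all genes. In FL against empty the count of lower subunits reached 26 without FL replicate 3, where 2676 of 19409 genes were lower. NDUFC2, an accessory subunit of complex I, averaged 56.1 ± 6.78 CPM in ΔTFR4 and 91.1 ± 4.94 CPM in empty (SD, n = 3 each; log2 fold change -0.70 ± 0.14 SE, adjusted p = 0.00386). ATP5MF, a membrane subunit of ATP synthase, averaged 64.3 ± 4.21 CPM in ΔTFR4 and 100 ± 14.6 CPM in empty (-0.64 ± 0.14, adjusted p = 0.00611). Both stayed called whichever library was left out, with adjusted p up to 0.0275 for NDUFC2 and 0.0381 for ATP5MF.

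Mitochondrial ribosomal proteins, which translate only the messengers of the mitochondrial genome, had 10 of 79 lower and 0 higher in ΔTFR5 against empty (12.7% lower, against 4.68% of all genes), and 12 lower and 1 higher in ΔTFR4 against empty (15.2% lower, against 11.4%). The count of lower members lay between 1 and 28 in ΔTFR5 and between 3 and 30 in ΔTFR4 when single libraries were left out, lowest without ΔTFR5 replicate 1 and ΔTFR4 replicate 2, and highest without FL replicate 1 in both. Of all genes, 210 of 19440 and 1049 of 19457 were lower at the low ends, and 2362 and 3632 of 19234 at the high ends. MRPL18 averaged 18.9 ± 1.30 CPM in ΔTFR5, 18.15 ± 1.04 in ΔTFR4 and 29.3 ± 1.45 in empty (log2 fold change -0.63 ± 0.12, adjusted p = 0.00788, and -0.69 ± 0.12, adjusted p = 0.00213). It was called in both deletion groups whichever library was left out. MRPL17 averaged 28.1 ± 1.23 CPM in ΔTFR4 and 50.3 ± 1.99 in empty (-0.84 ± 0.17, adjusted p = 0.00402). In FL against empty 0 of 79 were called by edgeR, with an unadjusted p under 0.05 for 11 and for 4933 of all 18763 genes. DESeq2 called 2 of the 79 there, against 11% of all genes.

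Among 31 genes of mitochondrial transcription, RNA processing and decay, 2 fell in ΔTFR5 against empty (6.45% lower, against 4.68% of all genes), and 6 fell and 1 rose in ΔTFR4 against empty (19.4% lower, against 11.4%). TRMT10C, a subunit of the mitochondrial RNase P that cuts the 5′ ends of transfer RNAs out of the precursor, averaged 32.7 ± 4.31 CPM in ΔTFR5, 26.9 ± 1.53 in ΔTFR4 and 52.4 ± 0.481 in empty. Its log2 fold change was -0.96 ± 0.15 in ΔTFR4 (adjusted p = 0.00134, at most 0.0117 with a library left out). In ΔTFR5 it was -0.68 ± 0.15 (adjusted p = 0.0141), and the call was lost without any one of 5 libraries, with adjusted p up to 0.0874. FASTKD5, needed for messengers whose ends are not marked by transfer RNAs, averaged 31.1 ± 1.31 CPM in ΔTFR4 and 48.8 ± 5.03 in empty (-0.65 ± 0.15, adjusted p = 0.00759). The counts for this group lay between 0 and 11 lower in ΔTFR5 and between 2 and 13 lower in ΔTFR4 with single libraries left out, highest in both without FL replicate 1. At that setting 2362 of all 19234 genes were lower in ΔTFR5 and 3632 in ΔTFR4. At the low ends it was 210 of 19440 in ΔTFR5 (without ΔTFR5 replicate 1) and 1049 of 19457 in ΔTFR4 (without ΔTFR4 replicate 2).

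Of 18 regulators of mitochondrial biogenesis, 0 rose and 1 fell in ΔTFR5, and 1 rose and 2 fell in ΔTFR4 against empty. The lower genes were 5.56% of the list in ΔTFR5, against 4.68% of all genes, and 11.1% in ΔTFR4, against 11.4%. With single libraries left out, 0 to 1 rose and 0 to 3 fell in ΔTFR5, and 1 to 3 rose and 1 to 3 fell in ΔTFR4. MYC, a transcription factor, averaged 271 ± 20.1 CPM in ΔTFR4 and 71.7 ± 6.86 in empty (log2 fold change 1.92 ± 0.39, adjusted p = 0.00502). In FL it averaged 254 ± 150 CPM (1.82 ± 0.39, adjusted p = 0.0496), a call that was lost when any one library other than FL replicate 3 was left out, with adjusted p up to 0.209. PPARGC1B, a coactivator of respiratory genes, averaged 17.2 ± 2.03 CPM in ΔTFR4 and 29.2 ± 0.9001 in empty (-0.76 ± 0.18, adjusted p = 0.00968). Of 15 mitochondrial chaperones and proteases, 0 rose and 1 fell in ΔTFR5, and 1 rose and 2 fell in ΔTFR4, against empty. Of all genes, 4.68 and 11.4% were lower. HSPE1, the small subunit of the mitochondrial chaperonin, averaged 15.6 ± 2.39 CPM in ΔTFR5, 14.0 ± 1.58 in ΔTFR4 and 36.5 ± 9.13 in empty. Its log2 fold change was -1.22 ± 0.31 in ΔTFR5 (adjusted p = 0.0278, up to 0.127 with a library left out) and -1.38 ± 0.31 in ΔTFR4 (adjusted p = 0.00801). LONP1 was the gene called higher in ΔTFR4 (0.69 ± 0.21, adjusted p = 0.0301, up to 0.103 with a library left out). The count of lower genes in that list lay between 1 and 4 in ΔTFR4 with single libraries left out. Among 15 genes of mitochondrial fission, fusion and mitophagy, 1 rose and 1 fell in ΔTFR5, and 2 rose and 3 fell in ΔTFR4, against empty, where 10.2 and 23.9% of all genes were called in either direction. With single libraries left out, 0 to 1 rose and 0 to 3 fell in ΔTFR5, and 1 to 2 rose and 0 to 4 fell in ΔTFR4. Beside the left-out ranges in this paragraph, 440 to 4600 of all genes were called in ΔTFR5 against empty and 2309 to 7329 in ΔTFR4 against empty.

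The genes whose level across the 12 libraries was most like the mean log2 CPM of the 10 were sought among 10355 genes whose log2 CPM averaged 3 or more. The 10 most alike included the microRNA host gene MIR222HG (Pearson r = 0.931), XIST (0.908), BPTF (0.888), ARPIN (0.88), MRTFB (0.861), KDM3A (0.852), NCOA6 (0.849), AL627309.5 (0.836) and HERC2P9 (0.828). No nuclear subunit of the respiratory complexes was among the 10 most alike genes. With 10 genes taken from 10355 and at most 79 such subunits among them, this absence says little about the subunits. The most opposed were MRFAP1L1 (-0.925), GTPBP4 (-0.901), GAR1 (-0.899), FJX1 (-0.896) and EMC7 (-0.874). MIR222HG averaged 16.8 ± 2.57 CPM in ΔTFR5, 12.6 ± 3.90 in ΔTFR4, 13.4 ± 4.09 in FL and 14.2 ± 2.75 in empty (SD, n = 3 each). These are the extremes of many genes over few libraries and are given as a description.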

How the data were processed

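Expression in batch 2 was deposited by the authors as salmon's estimated counts per gene, and 64.11% of the values above 0 are whole within 0.01. Tools listed in the submitters' processing notes are cutadapt 2.5, FastQC 0.11.5, STAR 2.7.3a, Subread 1.6.2 and DESeq2 1.24.0, and the listed builds are GRCh38 and GRCm38, without roles. The release of salmon, the gene models and the strand option it ran with are not stated in the material at hand. The batch 1 table was not used. Estimated counts were rounded to whole numbers.

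Genes were tested in R 4.3.3 with edgeR 4.0.16: filterByExpr (minimum count 10, minimum total 15), TMM factors and the robust quasi-likelihood test, in 1 model over all 12 libraries of batch 2. P-values were adjusted over 18763 genes, and calls use 0.05. The common biological coefficient of variation was 0.212. CPM use TMM library sizes, with factors from 0.963 to 1.03. Lengths and sequences come from GENCODE 29 (GRCh38). DESeq2 1.42.0, other scalings and left-out libraries were alternatives, and the tests were tested on simulated data. Shares were compared by exact permutation (scipy 1.17.1). Counting error is small at these depths, and the spread between libraries limits precision. No replicate pair agreed within sampling noise.

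The named genes are the 10 members, SLNCR, the other mitochondrially encoded genes past the filter, the 3 nuclear copies with most counts, called genes of the lists with the lowest adjusted p (up to 4 a list, of which some are printed), and the genes with the most alike or opposed pattern. Other genes were named as signs of library quality or cell type. The members and lists were chosen with earlier results of these data known. Some genes that the rule reaches are not reported here.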

Additional observations from a re-analysis of the deposited data

How the results depend on the processing

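No setting turned the direction of a call among the 10 genes, since none was called. Of their 420 log2 fold changes under alternatives other than leaving out a library, 411 kept direction and side of the threshold, 5 passed it and 4 changed sign. Those 4 were MT-ATP6 in ΔTFR5 against empty, at -0.011 with DESeq2 and with its size factors, -0.004 with scaling on nuclear genes and -0.007 with the 2 groups alone. With the 2 groups alone, 5 of the 10 were called in ΔTFR5 against empty.

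The count of all genes called depended on the setting. DESeq2 called 2057 in FL against empty (edgeR 217), 1929 in ΔTFR4 against FL (819), 1456 in ΔTFR5 against FL (259), 2951 in ΔTFR5 against empty (1907), 236 in ΔTFR5 against ΔTFR4 (85) and 5832 over 4 groups (3502). Without a filter the counts were 907, 486 and 141 in FL against empty, ΔTFR5 against FL and ΔTFR5 against ΔTFR4. With 2 groups alone they were 2 in FL against empty, 33 and 1 in ΔTFR4 and ΔTFR5 against FL, 9081 and 5635 in ΔTFR4 and ΔTFR5 against empty, and 1106 in ΔTFR5 against ΔTFR4.

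Whether the replicate numbers pair the libraries is not settled by these values. Same-numbered libraries had correlations of their deviations from -0.142 to 0.197, and 4 of 18 pairs were over 0.1. Of 12 libraries, 6 were closest to their own number. With a replicate block 399 genes were called in FL against empty (217 without it) and 170 in ΔTFR5 against FL (259 without it). None of the 10 genes was called with the block in any comparison.

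With 1 library left out, genes called ran from 6 to 5966 in FL against empty, 79 to 2220 in ΔTFR4 against FL, 19 to 3480 in ΔTFR5 against FL, 2309 to 7329 in ΔTFR4 against empty, 440 to 4600 in ΔTFR5 against empty, 39 to 387 in ΔTFR5 against ΔTFR4 and 1286 to 7750 over 4 groups. Of the 10 genes, 0 to 2 were called in FL against empty, ΔTFR5 against FL and over 4 groups, 0 to 1 in ΔTFR4 against empty, 0 to 3 in ΔTFR5 against empty, and 0 in both other comparisons. Shares that did not overlap ran from 0 to 8 in FL against empty, 2 to 6 in ΔTFR4 against FL, 2 to 8 in ΔTFR5 against FL and 4 to 7 in ΔTFR5 against ΔTFR4, an alternative chosen after seeing the data. Counted as shares of all 13 mitochondrial messengers, 4 did not overlap in ΔTFR5 against ΔTFR4, and the other comparisons gave the counts printed above.

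Of 720 log2 fold changes with a library left out, 36 changed sign. In FL against empty, these ran from -0.336 to 0.098 for MT-CO3, -0.084 to 0.211 for MT-CYB, -0.069 to 0.26 for MT-ND1 and -0.056 to 0.359 for MT-ND2. In ΔTFR4 against FL they ran from -0.546 to 0.112 for MT-ATP6, -0.282 to 0.12 for MT-CO1, -0.49 to 0.074 for MT-CO2, -0.263 to 0.108 for MT-CYB, -0.247 to 0.461 for MT-ND3, -0.567 to 0.057 for MT-ND4 and -0.28 to 0.206 for MT-ND5. In ΔTFR5 against FL they ran from -0.025 to 0.539 for MT-CO2, -0.106 to 0.222 for MT-ND1, -0.144 to 0.271 for MT-ND2, -0.029 to 0.677 for MT-ND3 and -0.047 to 0.576 for MT-ND4. Against empty they ran from -0.123 to 0.14 for MT-ATP6 and -0.132 to 0.027 for MT-ND3 in ΔTFR5 and from -0.195 to 0.126 for MT-CYB in ΔTFR4. The cause of these changes was not tested.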
